A study of Mus musculus with 24 samples.

Results

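The genes described here encode the subunits of CCT, the ring-shaped chaperonin of the cytosol, together with the chaperonin of the mitochondrial matrix and its lid. They were chosen by name as Tcp1, Cct2, Cct3, Cct4, Cct5, Cct6a, Cct7 and Cct8 for CCT and Hspd1 and Hspe1 for the mitochondria, and all of them were found, 10 of the 41710 genes in each of the primary and immortalized tables. CCT stacks a pair of rings, each with a single copy of every subunit, and closes around newly made actin, tubulin and WD40-repeat proteins while they fold at the cost of ATP. The subunits encoded by Cct2, Cct4, Cct5 and Cct7 bind ATP tightly and lie on one side of the ring, and those of Tcp1, Cct3, Cct6a and Cct8 bind it weakly and lie on the other, so the complex needs every subunit. The mitochondrial chaperonin is a ring of a single protein, Hsp60 (Hspd1), which encloses imported proteins under a lid of Hsp10 (Hspe1), and both genes belong to the stress response of mitochondria and of heat shock.

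The study measured RNA in mouse embryonic fibroblasts (MEFs) to ask what Myc and Mlx, partners in an extended network of transcription factors, each contribute when removed alone or together. Cells came from pooled embryos with homozygous floxed alleles of Myc, Mlx or both and a CreER transgene that is driven by the ROSA26 promoter and activated by 4-hydroxytamoxifen (4OHT). MycKO, MlxKO and DKO (both genes) cells had been treated with 500 nM 4OHT, and WT cells carried intact floxed loci and the same transgene and were not excised. The paper took a single WT line as the control in most cases, and it does not name the line or lines of these WT libraries. Immortalized cells had also received SV40 T antigen by lentivirus with blasticidin selection, and these lines all kept dividing, whereas primary MycKO and DKO cells had stopped. The paper also reports that most immortalized MycKO cells had become tetraploid or pseudo-tetraploid. In that group, loss of Myc and the change in ploidy cannot be told apart. Loss of a gene and exposure to 4OHT with active Cre cannot be told apart, since the WT groups had neither. With 3 libraries in each of 8 groups, there were 12 primary and 12 immortalized libraries, which held between 15986856 and 20966163 reads on genes.

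Levels are the deposited values headed CPM, which were scaled between libraries in a way no source names. Fold changes are log2 fold changes of CPM + 1. Values of a group are listed in the order of library numbers, which are 1, 2 and 3 for primary WT, 2, 3 and 4 for immortalized WT, and for MlxKO, MycKO and DKO 5 to 7, 9 to 11 and 13 to 15 in either table. The tables were normalized separately, so primary and immortalized values are set side by side and were never tested against each other. Calls are adjusted p under 0.05 from limma with Benjamini-Hochberg adjustment, 2-sided, over the 13101 primary and 12880 immortalized genes that reached 1 CPM in 3 or more libraries, a filter that all 10 chaperonin genes passed in both tables. An exact permutation of 3 against 3 libraries cannot go below p = 0.10 for a gene, and p-values here measure spread between libraries of cultures, some of which may be technical. Where groups did not overlap, the share of genes tested was counted for primary MycKO and DKO and immortalized DKO against WT. Other separations carry no such share.

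Library 4 of the immortalized WT cells stood apart from libraries 2 and 3 of its group. Across genes, its Pearson r with them was 0.976 to 0.979, against 0.993 to 0.998 between other immortalized libraries of the same group and 0.995 to 0.998 in primary groups. All 10 chaperonin genes were highest of the 3 WT libraries in library 4, by 1.25-fold (Cct7) to 2.07-fold (Cct6a) over the mean of libraries 2 and 3, with a median of 1.64-fold. Several marker sums of library 4 also stood apart from those of libraries 2 and 3. Its proliferation sum was 2909 CPM against 2346 and 2270, and its fibroblast sum 25576 against 33611 and 33710. Its cartilage sum was 39.3 CPM against 85.8 and 104, and its epithelial sum 0.365 against 5.91 and 5.72. Immortalized comparisons with WT are therefore also given without this library, for the chaperonin genes, the counts and named genes of the lists of related proteins and the shares of the ring.

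The cells carried fibroblast RNA. All 10 fibroblast markers were above 1 CPM in every primary library, with a summed level of 42753 to 46398 CPM in WT, 43844 to 48369.7 in MlxKO, 55214 to 57558 in MycKO and 57732 to 58686 in DKO cells. Col1a1 was the most abundant, at 16784 to 23695 CPM in primary cells and 4291 to 15401 CPM in immortalized cells, and no fibroblast marker was at 0 in every library of a table. In immortalized cells the sum was 25576 to 33710.1 CPM in WT, 18479.7 to 22714 in MlxKO, 18011 to 24224 in MycKO and 26722 to 34569 in DKO cells, and at least 9 of 10 markers reached 1 CPM in each library. Macrophage RNA was also present in the primary cultures: all 8 macrophage markers were tested, Lyz2 was the most abundant, and their sum was 286 to 546 CPM in WT, 311 to 388 in MlxKO, 51.3 to 75.1 in MycKO and 103 to 228 in DKO. In immortalized cells 5 of the 8 macrophage markers stayed under 1 CPM in every library, Adgre1 was at 0, Cd14 led, and the sum did not exceed 12.1 CPM. Markers of other cell types follow the chaperonin genes.

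The knocked-out genes were read first, since their transcripts can remain countable where only part of a gene is excised. The paper reports near-complete excision of each target gene by DNA assay, with loss of protein to match. The origin of the remaining reads was not tested. Primary Myc (ENSMUSG00000022346, chr15:61857227-61862223) was 100.1, 89.8 and 91.8 CPM in WT, 85.6, 89.6 and 87.3 in MlxKO, 25.8, 26.8 and 26.8 in MycKO and 21.6, 22.9 and 19.9 in DKO libraries. Primary Mlx (ENSMUSG00000017801, chr11:100978080-100983043) was 26.0, 20.5 and 24.5 CPM in WT, 13.0, 13.5 and 14.0 in MlxKO, 21.1, 17.3 and 20.5 in MycKO and 11.8, 12.0 and 9.73 in DKO libraries. Each gene was lower in every primary library of the cells that lacked it than in every WT library. Immortalized Myc was 48.1, 39.9 and 177 CPM in WT, 72.4, 82.8 and 79.5 in MlxKO, 17.2, 11.0 and 9.96 in MycKO and 8.02, 5.77 and 4.25 in DKO libraries. WT library 4 held the most Myc of these 12, and without it the log2 fold change moved from -2.41 to -1.74 in MycKO, from -3.38 to -2.71 in DKO and from 0.16 to 0.82 in MlxKO cells, where the rise was called only without it (adjusted p = 0.00955 against 0.798, limma with Benjamini-Hochberg adjustment). Immortalized Mlx was 25.1, 23.5 and 20.5 CPM in WT, 17.0, 12.4 and 12.1 in MlxKO, 27.8, 25.1 and 22.4 in MycKO and 14.5, 18.0 and 17.7 in DKO libraries. It fell in MlxKO (log2 fold change -0.71, adjusted p = 0.00471, limma with Benjamini-Hochberg adjustment), whereas in DKO the difference of -0.44 had an adjusted p of 0.0694 with all libraries and of 0.0340 without WT library 4, at -0.52.

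The CCT genes are scattered over the genome (GRCm39), and several share exon bases with a neighbour on the other strand, where counts are uncertain because the strand setting of the counting is not stated. Cct2 (ENSMUSG00000034024, chr10:116886897-116899744, minus strand) encodes the beta subunit, and no 50-base stretch of its transcript recurred in another annotated gene. Cct4 (ENSMUSG00000007739, chr11:22940379-22956236, plus strand) encodes delta and runs over the antisense lncRNA Gm73696. Cct5 (ENSMUSG00000022234, chr15:31588834-31601959, minus strand) encodes epsilon and overlaps Cmbl, which did not exceed 0.610 CPM. Cct7 (ENSMUSG00000030007, chr6:85428439-85445708, plus strand) encodes eta and shares 994 exon bases with Pradc1, at 2.85 to 8.86 CPM, and 26.7% of its 50-base stretches were found elsewhere, most of them in Pradc1 (25.4%). On the weak-binding side, Tcp1 (ENSMUSG00000068039, chr17:13134588-13163066, plus strand) encodes alpha and overlaps Acat2, Acat3 and Mrpl18, and 34.8% of its 50-base stretches were found elsewhere. Cct3 (ENSMUSG00000001416, chr3:88204289-88230423, plus strand) encodes gamma and shares 38 exon bases with Tsacc, which did not exceed 0.460 CPM. Cct6a (ENSMUSG00000029447, chr5:129864049-129875406, plus strand) encodes zeta and shares 465 exon bases with Psph, at 21.7 to 51.4 CPM. Cct8 (ENSMUSG00000025613, chr16:87279168-87292801, minus strand) encodes theta and shares exon bases with Usp16, at 49.3 to 96.0 CPM, and with the lncRNA B130034C11Rik. Cct6b and Cct8l1, listed as testis paralogs of zeta and theta, had means of 0.160 and 0.00480 CPM over the primary libraries. Over the immortalized libraries their means were 0.154 and 0 CPM, and neither passed the filter.

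Hspd1 (ENSMUSG00000025980, chr1:55116989-55171038, minus strand) and Hspe1 (ENSMUSG00000073676, chr1:55127260-55130476, plus strand) lie head to head, as the annotation places the main start of Hspe1 107 bases from that of Hspd1 on the opposite strand. Their exons share 143 bases, and Hspd1 also overlaps Mob4. Of the 50-base stretches of Hspd1, 45.5% were found elsewhere, mostly in the processed copy Hspd1-ps3 (42.8%). Hspd1-ps3 is not among the genes of the tables, so the number of reads assigned to it and away from Hspd1 is not known.

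Although the ring holds its subunits in equal number, their RNA levels per transcript length were not equal. In primary WT cells the level per kb of canonical transcript ran from 55.0 CPM per kb for Cct4 and 69.1 for Cct5 to 158 for Tcp1 and 184 for Cct2. Between them stood Cct8 (93.0), Cct7 (100.4), Cct6a (116) and Cct3 (137). Hspd1 stood highest of the 10 genes, at 199.5, and Hspe1 was at 146 CPM per kb. The transcript used sets this scale, and the long canonical transcripts of Cct4 and Cct5 lower their values, so the order is one of RNA per annotated base and not of protein. Of the summed level per kb of the 8 ring genes, Cct2 took 20.2% in WT, 20.2% in MlxKO, 20.3% in MycKO and 19.8% in DKO primary cells. Between primary WT and DKO cells the shares of Cct7 (11.0 to 12.3%) and Cct8 (10.2 to 11.5%) differed most, as these had the smallest falls of the ring.

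In primary cells, on the tight-binding side of the ring, Cct2 was 368, 370.0 and 348 CPM in WT and 338, 337 and 368 CPM in MlxKO libraries. It was 249.9, 259 and 264 CPM in MycKO and 239, 228 and 222 CPM in DKO libraries. WT and MlxKO overlapped, every MycKO library lay below both, and every DKO library lay below every MycKO library. Cct4 was 273, 257 and 251 CPM in WT and 228, 239.9 and 249.7 CPM in MlxKO libraries, and 170.3, 199.6 and 182 CPM in MycKO and 169.7, 183 and 161 CPM in DKO libraries. The highest MlxKO library sat just under the lowest WT library, and MycKO and DKO overlapped each other well below both. Cct5 was 283, 278 and 264 CPM in WT and 259.5, 246 and 286 CPM in MlxKO libraries, and 201, 205 and 195 CPM in MycKO and 171, 168 and 166 CPM in DKO libraries. Here the libraries made 3 separate levels, with WT and MlxKO together at the top, MycKO below them and DKO lowest. Cct7 was 266, 262 and 223 CPM in WT and 221, 217 and 249.6 CPM in MlxKO libraries, and 213, 173 and 208 CPM in MycKO and 189.6, 181 and 173 CPM in DKO libraries. Its WT libraries were the most spread of the ring genes relative to their mean, and the lowest of them was still above the highest MycKO library.

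On the weak-binding side, Tcp1 was 406, 379 and 419.9 CPM in WT and 368, 410.1 and 431 CPM in MlxKO libraries, and 257, 311 and 262 CPM in MycKO and 251, 258 and 240.4 CPM in DKO libraries. WT and MlxKO overlapped, and MycKO library 10 was the highest library of the cells without Myc. Cct3 was 296, 283 and 287 CPM in WT and 270.4, 266 and 291 CPM in MlxKO libraries, and 196, 185 and 192 CPM in MycKO and 189.8, 182 and 168 CPM in DKO libraries. Both groups with Myc stood far above both groups without it, and within each of these pairs the libraries overlapped. Cct6a was 335, 314 and 316 CPM in WT and 292, 303 and 334 CPM in MlxKO libraries, and 214, 211 and 220.3 CPM in MycKO and 199, 191 and 188 CPM in DKO libraries. As for Cct2, the DKO libraries were all below the MycKO libraries. Cct8 was 339, 317 and 314 CPM in WT and 298, 319.8 and 329 CPM in MlxKO libraries, and 234, 256 and 235 CPM in MycKO and 241, 232 and 236 CPM in DKO libraries. Its MycKO and DKO libraries overlapped, and all 6 of them were below every library with Myc.

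The mitochondrial ring gene Hspd1 was 486, 496 and 468 CPM in WT and 389.9, 391 and 434 CPM in MlxKO libraries, and 287, 287 and 276 CPM in MycKO and 208, 210.2 and 205 CPM in DKO libraries. Hspd1 alone of the chaperonin genes had all 4 primary groups apart (WT, MlxKO, MycKO and DKO), an order not counted over all genes tested. Its lid gene Hspe1 was 118, 109 and 112 CPM in WT and 109, 112 and 139 CPM in MlxKO libraries, and 87.4, 68.6 and 81.0 CPM in MycKO and 52.6, 53.7 and 55.9 CPM in DKO libraries. MlxKO library 7 was the highest of the 12, and the MycKO and DKO libraries formed lower, separate groups.

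**Figure D1:**
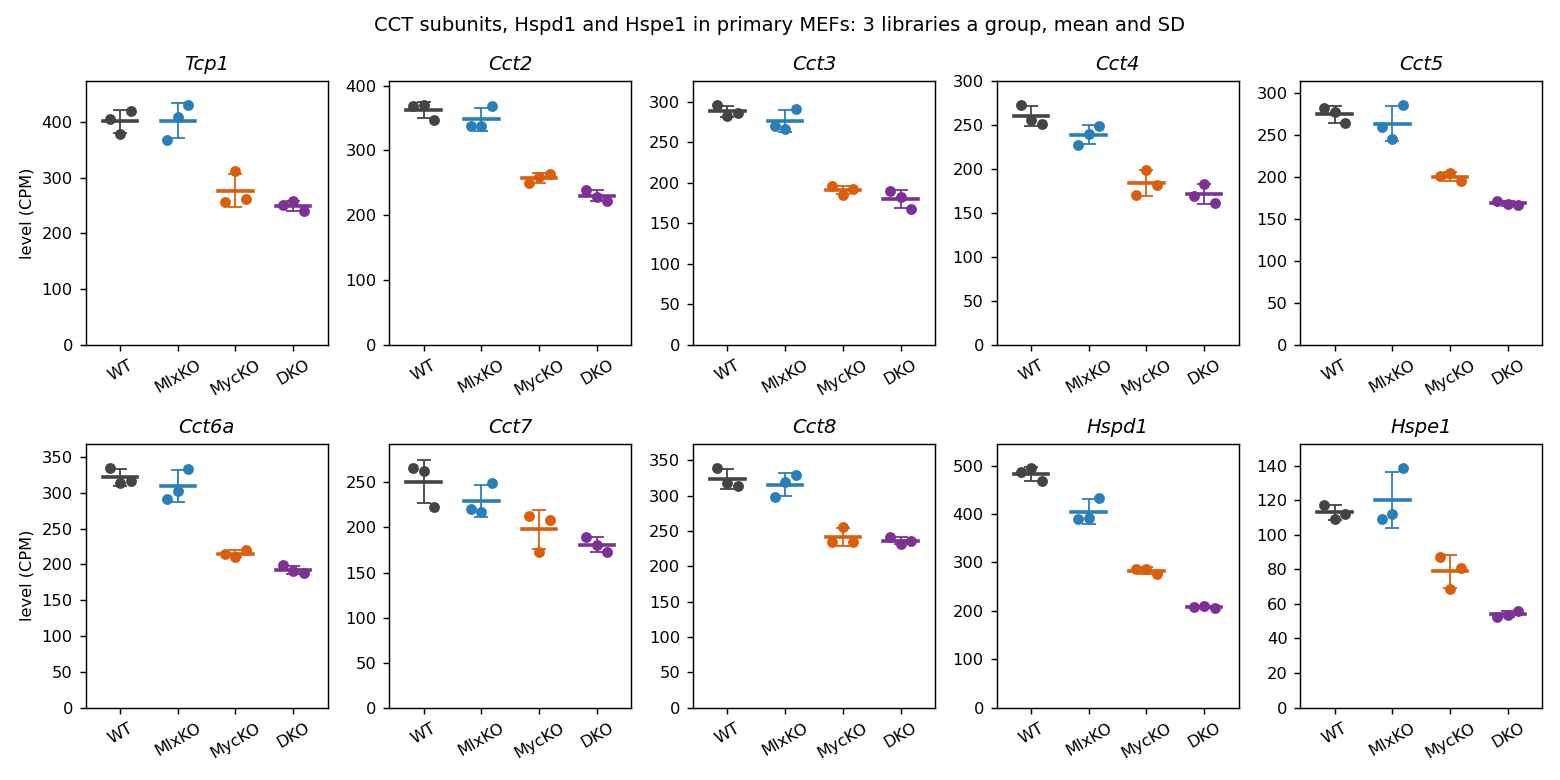
Level in CPM (vertical axis, from 0) of each of the 10 chaperonin genes in primary MEFs by genotype, with a point for each of 3 libraries, a bar at the mean and an error bar of 1 SD. All MycKO and DKO points lie below all WT points in every panel, and Hspd1 steps down from 468 to 496 CPM in WT to 205 to 210 CPM in DKO cells.

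The comparison of primary MycKO with WT asked what Myc contributes when Mlx is intact. All 10 chaperonin genes fell, against 21.9% of the 13101 genes tested that were called lower, and for all 10 every MycKO library was below every WT library, which held for 24.6% of genes tested. The log2 fold change was largest for Hspd1 at -0.77 (95% CI -0.89 to -0.65, adjusted p = 3.25e-08, limma with Benjamini-Hochberg adjustment). In the ring it went from -0.59 for Cct3 (95% CI -0.72 to -0.46) and -0.58 for Cct6a (95% CI -0.71 to -0.45) to -0.34 for Cct7 (95% CI -0.52 to -0.16, adjusted p = 0.00454, limma with the same adjustment). Tcp1 (-0.54), Cct4 (-0.50), Cct2 (-0.49), Cct5 (-0.45) and Cct8 (-0.42) came between, and the lid gene Hspe1 was at -0.52 (95% CI -0.71 to -0.32). The ring median was -0.49 and the median of all genes tested was 0.00. In bulk RNA, fewer cells of a type and less RNA per cell cannot be told apart, and the cultures with and without Myc also differed in whether they divided.

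The primary comparison of MlxKO with WT asked the same for Mlx. It gave 1 chaperonin gene, Hspd1, which fell by 0.26 (95% CI -0.38 to -0.14, adjusted p = 0.00889, limma with Benjamini-Hochberg adjustment), with every MlxKO library below every WT library, against 5.14% of genes tested that were called lower. The call was lost without WT library 2 (-0.24, adjusted p = 0.0529) and without MlxKO library 6 (-0.23, adjusted p = 0.0503), and over the 22 alternatives the adjusted p from limma, edgeR or DESeq2 ran from 4.52e-05 to 0.0529. For the ring genes the differences ran from -0.13 for Cct7 (95% CI -0.31 to 0.06) to 0.00 for Tcp1 (95% CI -0.16 to 0.17). Hspe1, the partner of Hspd1, was at 0.08 (95% CI -0.12 to 0.28). A p that misses the threshold does not show that values did not differ, and these intervals admit changes of the size seen for Hspd1 in some of the genes.

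Primary DKO cells lack both factors. Against WT, all 10 chaperonin genes fell, with 25.5% of genes tested called lower, and in all 10 every DKO library was below every WT library, as in 30.8% of genes tested. The mitochondrial genes had the largest log2 fold changes, -1.21 for Hspd1 (95% CI -1.33 to -1.09, limma with Benjamini-Hochberg adjustment, adjusted p = 1.53e-10) and -1.05 for Hspe1 (95% CI -1.25 to -0.85). Ring genes ran from -0.74 for Cct6a and -0.70 for Cct5 to -0.46 for Cct7 and -0.45 for Cct8, around a ring median of -0.67. MycKO, MlxKO and DKO cells share their WT libraries, so these comparisons with WT are not independent of each other.

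Setting DKO against the single knockouts compares means that hold no WT library, although WT libraries still enter the pooled spread. Against MlxKO, which asked for the effect of Myc where Mlx is missing, all 10 chaperonin genes were lower, with 25.9% of genes tested called lower. The log2 fold changes ran from -1.13 for Hspe1 (95% CI -1.33 to -0.93) to -0.34 for Cct7 (95% CI -0.52 to -0.15). Against MycKO, which asked for the effect of Mlx where Myc is missing, 3 were lower, with 11.0% of genes tested called lower. These were Hspe1 at -0.53 (95% CI -0.73 to -0.33, adjusted p = 0.000506, limma with Benjamini-Hochberg adjustment), Hspd1 at -0.44 (95% CI -0.56 to -0.33) and Cct5 at -0.25 (95% CI -0.38 to -0.12). Cct2 (-0.16, 95% CI -0.29 to -0.04) and Cct6a (-0.16, 95% CI -0.29 to -0.03) had DKO libraries that were all below the MycKO libraries and were not called. Without MlxKO library 7, both were called as well, at -0.16 and -0.16, which made 5 with 11.4% of genes tested called lower, and without WT library 3 Cct2 was. Without MycKO library 10, Cct6a at -0.17 and Cct7 at -0.22 were added, again 5 in all, with 13.6% of genes tested called lower. Cct8 differed least, by -0.03 (95% CI -0.16 to 0.09).

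The interaction term asked whether loss of both factors differed from the sum of the single losses. In primary cells it was called for 1 chaperonin gene, Hspe1, at -0.61 (95% CI -0.89 to -0.33, adjusted p = 0.00418, limma with Benjamini-Hochberg adjustment), against 6.07% of genes tested that were called lower. The lid gene was thus lower in DKO cells than the sum of its -0.52 in MycKO and 0.08 in MlxKO cells, and the call held when each library was left out in turn, with values from -0.71 to -0.50. For its partner Hspd1 the term was -0.19 (95% CI -0.36 to -0.02) and for Cct5 -0.19 (95% CI -0.37 to 0.00), and neither was called. The other ring genes lay between -0.15 for Tcp1 (95% CI -0.38 to 0.09) and 0.02 for Cct4 (95% CI -0.19 to 0.23).

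Other quantities moved in the same primary libraries. The summed level of 10 proliferation genes was 1171 to 1242 CPM in WT, 928 to 967 in MlxKO, 713 to 845 in MycKO and 559 to 596 in DKO, with Top2a the most abundant, and none of the 10 was at 0. All 10 of them fell in each knockout, and their median was -1.04 in DKO, -0.67 in MycKO and -0.34 in MlxKO. The 8 macrophage markers all fell in MycKO (median -2.55) and in DKO (median -1.59). The part of cell division and of the macrophage content in the falls of the chaperonin genes was not tested. Scaling changed the size of the falls and not their direction: dividing by each library's own total moved the median of all genes by -0.12 between DKO and MlxKO, and it moved the ring median there from -0.60 to -0.72, so relative to all genes the ring stood at about the same place. With that scaling the split of all genes called higher and lower went from 2677 and 2864 to 1853 and 4051 in MycKO, from 491 and 673 to 661 and 567 in MlxKO, from 3146 and 3341 to 2481 and 4194 in DKO, and from 3047 and 3390 to 2219 and 4631 in DKO against MlxKO. All 10 chaperonin genes were lower in MycKO and in DKO than in WT under the deposited, the median-ratio and the library-total scaling.

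In immortalized cells, on the tight-binding side of the ring, Cct7 was 155, 185 and 213 CPM in WT and 241, 277 and 278 CPM in MlxKO libraries. It was 253, 241 and 242 CPM in MycKO and 209, 187 and 215 CPM in DKO libraries. Every MlxKO and MycKO library was above every WT library, and DKO and WT libraries overlapped. Cct2 was 299.9, 286 and 463 CPM in WT and 294, 299 and 306 CPM in MlxKO libraries, and 294, 234 and 255 CPM in MycKO and 236, 245 and 256 CPM in DKO libraries. All DKO libraries lay under all WT libraries, and the other groups overlapped WT. Cct4 was 289, 245 and 386 CPM in WT and 208, 182 and 203 CPM in MlxKO libraries, and 281, 222 and 233 CPM in MycKO and 202, 241 and 260.4 CPM in DKO libraries. MlxKO was the lowest group and did not overlap WT. Cct5 was 199.7, 188 and 312 CPM in WT and 256, 252 and 255 CPM in MlxKO libraries, and 224, 183 and 189 CPM in MycKO and 155, 161 and 170.3 CPM in DKO libraries. The MlxKO libraries were close together and above WT libraries 2 and 3, and the DKO libraries were below those of every other group.

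Tcp1 was 441, 382 and 749 CPM in immortalized WT and 383, 350.5 and 378 CPM in MlxKO libraries, and 468, 356 and 376 CPM in MycKO and 318, 385 and 415 CPM in DKO libraries. Apart from WT library 4, the groups shared a common range. Cct3 was 219, 236 and 378 CPM in WT and 322, 318 and 326 CPM in MlxKO libraries, and 239, 196 and 218 CPM in MycKO and 203, 193 and 214 CPM in DKO libraries. MlxKO libraries exceeded every immortalized library other than WT library 4. Cct6a was 302, 283 and 604 CPM in WT and 347, 328 and 340.0 CPM in MlxKO libraries, and 378, 264 and 282 CPM in MycKO and 245, 272 and 280.1 CPM in DKO libraries. WT library 4 and, by less, MycKO library 9 were high within their groups. Cct8 was 296, 264 and 466 CPM in WT and 295, 272 and 295 CPM in MlxKO libraries, and 296, 258 and 262 CPM in MycKO and 242, 266 and 294 CPM in DKO libraries. Its 4 groups overlapped.

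Hspd1, the mitochondrial ring gene, was 238, 243 and 456 CPM in immortalized WT and 364, 317 and 350.2 CPM in MlxKO libraries, and 202, 232 and 246 CPM in MycKO and 185, 189 and 197 CPM in DKO libraries. DKO libraries were the lowest of all, and MlxKO libraries were above WT libraries 2 and 3. Hspe1, the lid gene, was 64.4, 59.0 and 86.7 CPM in WT and 71.9, 72.3 and 80.0 CPM in MlxKO libraries, and 113, 57.1 and 57.5 CPM in MycKO and 43.3, 53.9 and 54.7 CPM in DKO libraries. MycKO library 9 was far above libraries 10 and 11 of its group, which were under the lowest WT library.

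**Figure D2:**
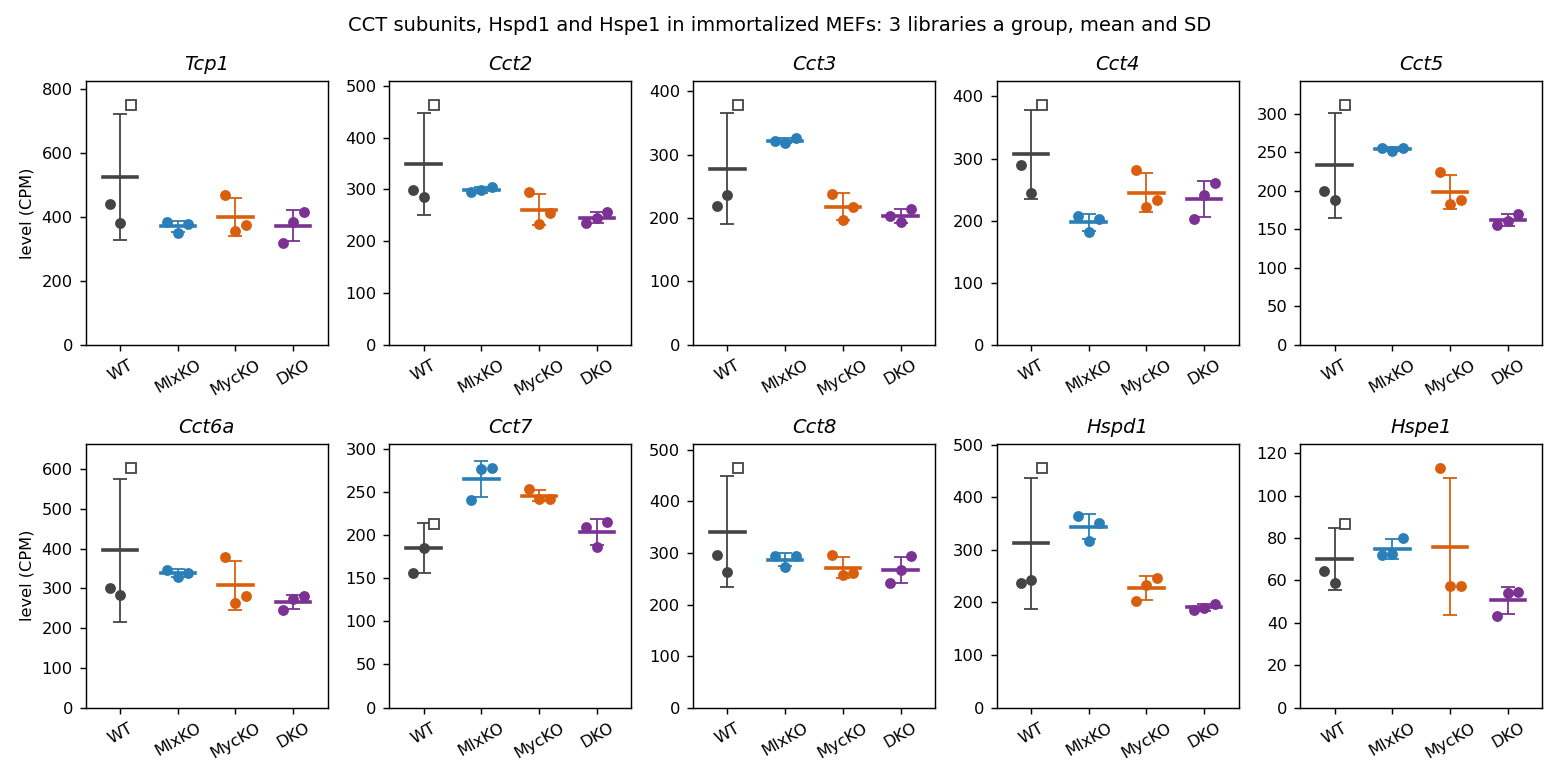
Level in CPM (vertical axis, from 0) of each chaperonin gene in immortalized MEFs by genotype, with a point for each of 3 libraries, a bar at the mean and an error bar of 1 SD, and an open square for WT library 4. In all 10 panels the open square is the highest WT value, and Cct7 alone has its MycKO libraries above all WT libraries, at 241 to 253 CPM against 155 to 213 CPM.

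In immortalized MycKO against WT, 1 chaperonin gene was called, and it was higher: Cct7, against 24.4% of genes tested that were called higher. In all 3 MycKO libraries it was above all 3 WT libraries, and its log2 fold change was 0.42 (95% CI 0.16 to 0.68, adjusted p = 0.0129, limma with Benjamini-Hochberg adjustment), opposite in sign to the -0.34 of primary cells. Leaving out WT library 4 raised it to 0.53 (27.3% of genes called higher), whereas leaving out WT library 2 lowered it to 0.30 (limma with Benjamini-Hochberg adjustment, adjusted p = 0.0634), which was not called. Fitting only the groups compared also lost it (adjusted p = 0.0588), and over the 23 alternatives the adjusted p from limma, edgeR or DESeq2 ran from 0.00127 to 0.0634. The other 9 genes lay between -0.39 for Hspd1 (95% CI -0.83 to 0.04) and 0.06 for Hspe1 (95% CI -0.45 to 0.56). Without WT library 4 they lay between -0.17 for Cct2 (95% CI -0.40 to 0.06) and 0.22 for Hspe1, and the ring median moved from -0.30 to -0.04. Without WT library 3, which left library 4 more weight, Cct2 (-0.52), Cct4 (-0.45) and Cct8 (-0.45) were called lower too, 4 genes in all, with 22.7% of genes tested called lower. Cct2 was also called lower without WT library 2 (-0.48) and without MycKO library 9 (-0.48).

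Immortalized MlxKO against WT gave 2 chaperonin genes, from the same side of the ring and in opposite directions. Cct7 was higher by 0.53 (95% CI 0.27 to 0.79, adjusted p = 0.00546, limma with Benjamini-Hochberg adjustment), with 19.1% of genes tested called higher. Cct4 was lower, at -0.61 (95% CI -0.96 to -0.25, adjusted p = 0.0123, limma with the same adjustment), with 19.9% of genes tested called lower. Without MlxKO library 6 Cct4 was at -0.55 and not called (limma with Benjamini-Hochberg adjustment, adjusted p = 0.0557). Nor was it called with library totals as the scaling and WT library 4 left out, a setting chosen after seeing the data (-0.29, adjusted p = 0.0942), and over its 23 alternatives the adjusted p from limma, edgeR or DESeq2 ran from 0.00219 to 0.0942. Leaving out WT library 4 gave 4 genes higher (23.1% of genes tested) and 1 lower (23.8%): Cct3 (0.50), Cct5 (0.39), Cct7 (0.64) and Hspd1 (0.51) rose, and Cct4 was at -0.43. With all libraries, Cct3 was not called at 0.26 (95% CI -0.11 to 0.63) nor was Hspd1 at 0.21 (95% CI -0.23 to 0.64), and library totals as the scaling added Cct3 alone to the calls (0.43, adjusted p = 0.0461, limma with Benjamini-Hochberg adjustment). Without WT library 3, Tcp1 was called lower at -0.63, with 20.6% of genes tested. Library totals moved the median of all genes by 0.16 and the split of genes called higher and lower from 2457 and 2557 to 3671 and 1584. The ring median went from -0.16 to 0.01 with that scaling, and to 0.27 when WT library 4 was left out too, so the sign of the ring median in MlxKO cells turned on these choices, whereas Cct7 stayed higher in all of them.

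Immortalized DKO against WT gave 1 chaperonin gene, Hspd1, which was lower, with 8.51% of genes tested called lower. Its log2 fold change was -0.64 (95% CI -1.079 to -0.20, limma with Benjamini-Hochberg adjustment, adjusted p = 0.0443), and without WT library 4 it was -0.33 and still called (adjusted p = 0.0385), with 10.1% of genes called lower. The call sat at the threshold: it was lost when any single library of MlxKO or DKO or MycKO library 10 or 11 was left out, with log2 fold changes from -0.67 (without DKO library 15) to -0.62 (without DKO library 13). Over its 23 alternatives the adjusted p from limma, edgeR or DESeq2 ran from 0.00809 to 0.150. In 6 of the 10 genes every DKO library was below every WT library, against 18.0% of genes tested, and 5 of these were not called. These 5 were Cct2 (-0.47, 95% CI -0.82 to -0.13), Cct5 (-0.48, 95% CI -0.84 to -0.13), Cct3 (-0.40), Cct6a (-0.49) and Hspe1 (-0.45), which without WT library 4 were at -0.25, -0.26, -0.16, -0.14 and -0.29 in that order. Cct7 was at 0.15 (95% CI -0.11 to 0.41), or 0.26 without WT library 4, the sole positive value of the 10 in either case. Without WT library 3, Tcp1 (-0.63), Cct2 (-0.60), Cct4 (-0.52) and Cct5 (-0.62) were called too, 5 in all with 11.6% of genes tested called lower, and without MycKO library 9 Hspe1 was (-0.45).

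The comparisons among immortalized knockouts did not use the WT means. DKO against MlxKO gave 4 chaperonin genes lower, with 13.9% of genes tested called lower: Hspd1 (-0.85, 95% CI -1.29 to -0.41), Cct3 (-0.66, 95% CI -1.03 to -0.29), Cct5 (-0.65, 95% CI -0.998 to -0.29) and Cct7 (-0.38, 95% CI -0.64 to -0.12). Cct7 lost its call without MlxKO library 6 (-0.35) or 7 (-0.34) and without DKO library 13 (-0.40), 14 (-0.32) or 15 (-0.42). Leaving out WT library 4 changes the pooled spread and not these means, and Cct2 (-0.29), Cct6a (-0.35) and Hspe1 (-0.56) were then called as well, 7 genes in all, with 20.6% of genes tested called lower. Hspe1 was also called without MycKO library 9. Library totals as the scaling moved the median of all genes in this comparison by -0.16 and the split of genes called higher and lower from 2094 and 1785 to 1268 and 3072, and the ring median from -0.32 to -0.49. With that scaling Cct2 (-0.46) and Hspe1 (-0.73) were added to the calls. DKO against MycKO gave 0 chaperonin genes with limma, with 29.4% of genes tested called in either direction, and 2 (Cct7 and Hspe1) had an unadjusted p under 0.05, whereas edgeR and DESeq2 also called 0. Cct7 was at -0.27 (95% CI -0.53 to -0.01) and Hspe1 at -0.51 (95% CI -1.01 to 0.00). Without WT library 4, Cct5 (-0.29) and Cct7 (-0.27) were called lower, with 20.4% of genes tested.

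The immortalized interaction was called for 1 chaperonin gene, Cct7, with 23.8% of genes tested called lower. Its value was -0.80 (95% CI -1.17 to -0.43, adjusted p = 0.00255, limma with Benjamini-Hochberg adjustment), since the rises of 0.42 in MycKO and 0.53 in MlxKO cells did not add up in DKO cells. Leaving out each library in turn gave -0.91 to -0.68, called each time. Without WT library 4, 5 chaperonin genes were called, with 28.6% of genes tested called lower: Cct3 (-0.60), Cct5 (-0.68), Cct7 (-0.91), Hspd1 (-0.76) and Hspe1 (-0.78). Cct4 went the other way at 0.54 (95% CI 0.04 to 1.04), and was called higher without WT library 3 (0.69), MycKO library 9 (0.65) or DKO library 13 (0.65), whereas without WT library 4 it was at 0.36 (95% CI -0.03 to 0.76) and not called. Library totals moved the median of all genes in the interaction by -0.18, the ring median from 0.02 to -0.15, and the split of genes called higher and lower from 3047 and 3061 to 2325 and 3920, and without WT library 4 the ring median was -0.26. The proliferation sum was 2269.8 to 2909 CPM in immortalized WT, 2153 to 2299 in MlxKO, 2345 to 2404 in MycKO and 2334 to 2535 in DKO cells, so every MlxKO library lay below every MycKO and DKO library, and WT overlapped each of the others. The 2909 CPM was that of WT library 4. The part of proliferation in these differences was not tested. Whether a difference between primary and immortalized cells in the response of the chaperonin genes exceeds the spread was not tested.

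**Figure D3:**
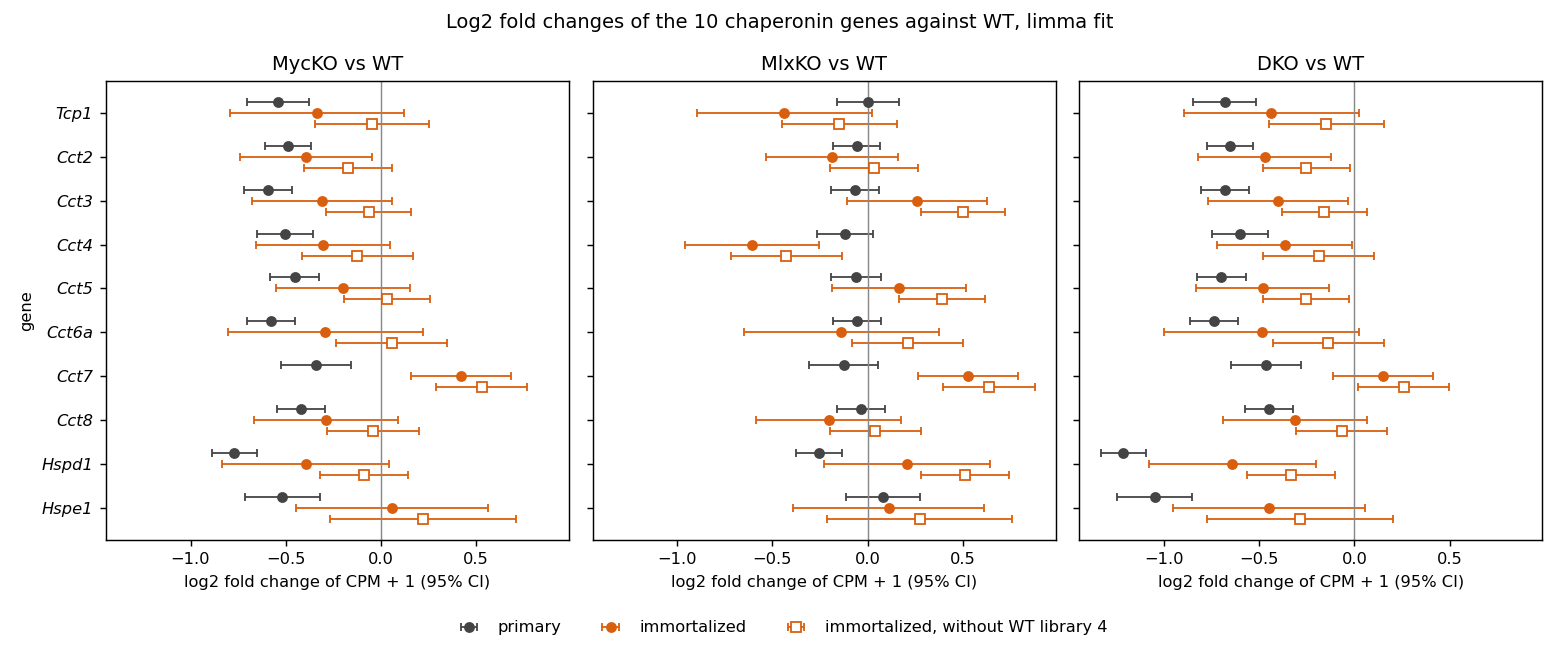
Log2 fold change of CPM + 1 against WT (horizontal axis) with its 95% CI for the 10 chaperonin genes (vertical axis) in MycKO, MlxKO and DKO cells, for primary cells, immortalized cells and immortalized cells without WT library 4. In MycKO cells all 10 primary values are below 0 and Cct7 is above 0 in immortalized cells, at 0.42 with and 0.53 without library 4.

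The make-up of the ring RNA differed between groups mainly in the shares of Tcp1 (16.7 to 21.7% over all 8 groups), Cct7 (7.75 to 12.6%) and Cct3 (13.2 to 17.6%), and which of these spanned the most turned on WT library 4: Tcp1 did with it, over 4.93 percentage points, and Cct3 without it, over 4.40, beside 4.13 for Tcp1 and 3.79 for Cct7. Of the summed level per kb of the ring genes, Cct7 took 7.75% in immortalized WT cells (8.78% without WT library 4), 12.2% in MlxKO, 12.6% in MycKO and 11.5% in DKO. Tcp1 took 21.7% in WT (20.9% without WT library 4), 16.8% in MlxKO, 20.2% in MycKO and 20.6% in DKO. Cct4 had its lowest share in immortalized MlxKO cells, 4.82%, against 6.79% in WT (7.25% without library 4) and 6.95% in DKO cells. Cct3 had its highest there, 17.6% against 13.8% in WT with all libraries and 13.8% without library 4. These shares are within a table and a description, and over all 8 groups each of the other ring genes stayed within 17.0 to 20.3% (Cct2), 5.73 to 7.81% (Cct5), 11.7 to 14.9% (Cct6a) and 9.52 to 11.5% (Cct8).

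How closely the 10 genes moved together was described by Pearson r of log2(CPM + 1) over the 12 libraries of a table, which mixes genotypes with replicates. In primary cells the 28 pairs of ring genes had a median r of 0.962, and all 45 pairs of chaperonin genes had a median of 0.951, with Tcp1 and Cct7 lowest at 0.754. In immortalized cells the medians were 0.713 and 0.663, and the lowest pair, Cct4 and Cct7, was at -0.466. WT library 4 is among those 12 points, and without it the medians were 0.531 and 0.564 and the lowest pair, again Cct4 and Cct7, was at -0.606. With all 12 libraries, of 12392 genes ranked by the lower of their r with the ring mean in primary and in immortalized cells, 30 exceeded 0.9 in both. The first was Ppa1 (r 0.990 in primary and 0.991 in immortalized cells), followed by Pclaf (0.983 and 0.951) and Timm8a1 (0.963 and 0.948). Next came Rsl24d1, Eif3i, Trmt6, Pa2g4, Qtrt2, Snhg5 and Set, with lower r values between 0.947 and 0.926 in that order. As descriptions over libraries that share genotypes, these values carry no test. WT library 4 had the highest ring mean of the immortalized libraries, 8.71 in log2(CPM + 1), with MycKO library 9 next at 8.21. No ranking without WT library 4 is given.

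The proteins around the chaperonins were read from lists chosen by role, beside all genes tested. Of all genes tested in primary cells, 20.4% were called higher and 21.9% lower in MycKO, 3.75% and 5.14% in MlxKO, and 24.0% and 25.5% in DKO. In immortalized cells the shares higher and lower were 24.4% and 23.5% in MycKO, 19.1% and 19.9% in MlxKO, and 10.4% and 8.51% in DKO, and with WT library 4 left out 27.3% and 26.7%, 23.1% and 23.8%, and 12.0% and 10.1%. The median log2 fold changes of all genes tested lay between -0.01 and 0.01. Of 13 genes of prefoldin, which delivers clients to the ring, and of other cofactors, among them those that fold tubulin after the ring releases it, 1 higher and 2 lower were called in primary MycKO and 1 higher and 2 lower in DKO cells, with medians of -0.06 and 0.02 beside the ring's -0.49 and -0.67, and the median in MlxKO was -0.11. Tbcd (71.2 CPM over the 12 libraries) and Pdcl3 (66.7) were the most abundant, and Pfdn4 (-0.32) and Vbp1 (-0.27) fell most in MycKO. In immortalized MycKO cells 6 higher and 2 lower were called (median 0.44), in MlxKO 3 higher and 3 lower (median 0.14) and in DKO 2 higher (median 0.01). Vbp1 (83.6 CPM) and Tbcd (74.8) led in level, and Pfdn6 (1.88) and Pfdn5 (1.09) rose most in MycKO. These counts were, without WT library 4, 6 higher and 2 lower in MycKO (median 0.36), 3 higher and 3 lower in MlxKO (median 0.01) and 1 higher in DKO (median 0.13), with Pfdn6 at 1.85 and Pfdn5 at 0.93 in MycKO.

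Clients of the ring did not follow it in one direction. Of 17 actin, tubulin and WD40 genes, 3 higher and 6 lower were called in primary MycKO, 4 lower in MlxKO and 2 higher and 8 lower in DKO cells, with medians of -0.08, -0.09 and -0.10. Acta2 (5053 CPM) and Actg1 (4681) were the most abundant, and Acta2 (0.69) and Tubb3 (0.63) changed most in primary MycKO, both upward, while the ring subunits that fold actin and tubulin fell. In immortalized cells 8 higher and 1 lower were called in MycKO (median 0.22), 4 higher and 1 lower in MlxKO (median -0.07) and 3 higher in DKO (median 0.16). Actg1 (5241 CPM) and Actb (4602) led in level there, and Acta2 (1.97) and Tubb3 (1.44) rose most in MycKO. Leaving out WT library 4 gave 10 higher and 2 lower in MycKO (median 0.43), 4 higher and 2 lower in MlxKO (median 0.13) and 5 higher in DKO (median 0.30), with Acta2 at 2.25 and Tubb3 at 1.89 in MycKO.

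Around Hspd1 and Hspe1 stand the other folding and import machines of the mitochondrion. Of 13 mitochondrial chaperones and proteases, 3 lower were called in primary MycKO, 1 higher in MlxKO and 9 lower in DKO cells, with medians of -0.12, 0.06 and -0.26 beside -0.77, -0.26 and -1.21 for Hspd1. Hspa9 (695 CPM) and Lonp1 (141) led in level, and Clpp (-0.39) and Trap1 (-0.32) fell most in MycKO. Immortalized counts were 4 higher and 3 lower in MycKO (median 0.13), 1 higher and 2 lower in MlxKO (median 0.32) and 1 higher and 1 lower in DKO (median -0.12), with Hspa9 (578 CPM) and Yme1l1 (168) the most abundant and Hscb (0.75) and Htra2 (0.72) the most risen in MycKO. The counts without WT library 4 were 3 higher and 3 lower in MycKO (median 0.18), 4 higher and 2 lower in MlxKO (median 0.19) and 1 higher and 1 lower in DKO (median -0.12), with Htra2 at 0.79 in MycKO and Hscb no longer called there (0.63, adjusted p = 0.0538, limma with Benjamini-Hochberg adjustment). Of 20 TOM and TIM import genes, 1 higher and 10 lower were called in primary MycKO, 1 lower in MlxKO and 14 lower in DKO cells, with medians of -0.24, -0.10 and -0.37. Tomm20 (154 CPM) and Tomm70a (122) led, and Timm8a1 (-1.10) and Timm9 (-0.64) fell most in MycKO. In immortalized cells the import counts were 6 higher and 3 lower in MycKO (median 0.23), 7 higher and 2 lower in MlxKO (median 0.10) and 3 lower in DKO (median -0.02), Tomm20 (187 CPM) and Tomm70a (149) again led, and Timm10 (1.15) and Timm13 (1.12) rose most in MycKO. With WT library 4 left out, the import counts were 9 higher and 3 lower in MycKO (median 0.38), 7 higher in MlxKO (median 0.35) and 1 higher and 3 lower in DKO (median 0.07), with Timm10 at 1.42 and Timm13 at 1.23 in MycKO.

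The heat shock and endoplasmic reticulum (ER) chaperones give the wider folding context of the ring. Of 24 cytosolic heat shock chaperones, 1 higher and 10 lower were called in primary MycKO, 1 higher and 2 lower in MlxKO and 2 higher and 14 lower in DKO cells, with medians of -0.14, -0.11 and -0.27. Hspa8 (1767 CPM) and Hsp90ab1 (1639) led, and Fkbp4 (-0.78) and Hsp90ab1 (-0.49) fell most in MycKO, sizes like those of Hspd1 and of the ring. Immortalized counts were 9 higher and 2 lower in MycKO (median -0.03), 9 higher and 4 lower in MlxKO (median 0.01) and 4 higher and 1 lower in DKO (median 0.07), with Hspa8 (2079 CPM) and Hsp90ab1 (1679) the most abundant and Hspa1b (1.47) and Hspa1a (1.36) the most risen in MycKO. Fitted without WT library 4, the list had 9 higher and 2 lower in MycKO (median 0.04), 10 higher and 3 lower in MlxKO (median 0.13) and 5 higher and 1 lower in DKO (median 0.14), with Hspa1b at 1.32 and Hspa1a at 0.96 in MycKO. Of 13 ER chaperones, 4 lower were called in primary MycKO, 10 lower in MlxKO and 9 lower in DKO cells, with medians of -0.10, -0.31 and -0.19, so this list, unlike the ring, had its largest count in MlxKO. Calr (1473 CPM) and Hsp90b1 (1349) led, and P4hb (-0.27) and Hspa5 (-0.20) fell most in MycKO. In immortalized cells the ER counts were 5 higher and 1 lower in MycKO (median -0.04), 7 lower in MlxKO (median -0.28) and 1 higher in DKO (median 0.02), Hsp90b1 (1251 CPM) and Pdia3 (1179) led, and Sdf2l1 (1.09) and Dnajb11 (0.56) rose most in MycKO. The ER counts without WT library 4 were 6 higher and 1 lower in MycKO (median 0.08), 2 higher and 5 lower in MlxKO (median -0.23) and 3 higher in DKO (median 0.09), with Sdf2l1 at 1.36 and Dnajb11 at 0.56 in MycKO.

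Of 13 genes of the Myc and Mlx network, Myc and Mlx themselves included, 12 were tested in each table, and 3 higher and 2 lower were called in primary MycKO, 1 higher and 2 lower in MlxKO and 3 higher and 3 lower in DKO cells, with medians of -0.03, -0.12 and 0.07. Mxd4 (102 CPM) and Mga (70.5) led, and Mycn (0.45) and Mycl (0.38) rose most in primary MycKO. Immortalized counts were 3 higher and 6 lower in MycKO (median -0.51), 1 higher and 1 lower in MlxKO (median 0.07) and 4 lower in DKO (median -0.33), with Mga (91.8 CPM) and Mxd4 (75.9) leading and Mycl (3.11) and Mxi1 (-1.61) changed most in MycKO other than Myc itself (-2.41). Without WT library 4 the counts were 3 higher and 7 lower in MycKO (median -0.51), 3 higher and 1 lower in MlxKO (median -0.01) and 8 lower in DKO (median -0.47), with Mycl at 3.58 and Mxi1 at -1.51 in MycKO. Of the 10 proliferation genes, Top2a and Mki67 led in level in both tables, Top2a (-0.83) and Ccna2 (-0.79) fell most in primary MycKO, and in immortalized MlxKO cells 1 higher and 2 lower were called, beside medians of 0.04 in MycKO and -0.02 in DKO. With WT library 4 left out, 2 higher and 2 lower were called in MlxKO and 2 higher in MycKO. Of the fibroblast markers 8 higher and 1 lower were called in primary MycKO, with Col1a1 and Col1a2 (10249 CPM) most abundant and Dcn (1.078) and Thy1 (0.70) most changed, and 2 higher and 3 lower in immortalized MycKO, with Col1a1 and Fn1 (5825 CPM) most abundant and Thy1 (4.18) and Lum (-2.27) most changed, or 2 higher and 4 lower without WT library 4, with Thy1 at 5.09 and Lum at -2.52. Of the macrophage markers Laptm5 (-3.19) and Csf1r (-2.66) fell most in primary MycKO, and in immortalized MycKO Cd68 fell (-0.97, and -0.92 without WT library 4).

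The remaining cell type lists bear on how pure the cultures were in which the chaperonin genes were measured. Epithelial markers summed to 16.5 to 19.9 CPM in primary WT and 2.00 to 2.24 CPM in MycKO cells, 3.23 to 4.83 in MlxKO and 1.95 to 2.76 in DKO cells, and to at most 5.91 CPM in immortalized cells, where Krt14 was at 0, and Krt18 (-2.73) and Krt8 (-2.18) fell in primary MycKO. Endothelial markers summed to 13.5 to 14.0 CPM in primary WT and 4.99 to 7.98 CPM in MycKO cells, 2.99 to 4.25 in MlxKO and 4.80 to 5.65 in DKO cells, led by Kdr (-1.18 in MycKO), and to at most 19.1 CPM in immortalized cells, where Kdr rose in MycKO (2.21, and 2.13 without WT library 4), Tek followed it in level and Cldn5 was at 0. Skeletal muscle markers summed to 76.7 to 85.6 CPM in primary WT and 29.4 to 33.8 CPM in MycKO cells, 32.4 to 43.1 in MlxKO and 77.5 to 83.5 in DKO cells, where they overlapped WT, nearly all of it Des (-1.38 in MycKO and -0.04 in DKO) ahead of Myh3, and to at most 0.996 CPM in immortalized cells, where Ttn and Des led and Myod1 and Myog were at 0. Cartilage markers summed to 104 to 120.4 CPM in primary WT, 112 to 124 in MlxKO, 95.8 to 102 in MycKO and 144 to 166 in DKO cells, led by Col2a1 and Sox9. Col2a1 and Comp fell in primary MycKO (-0.65 and -0.46) and rose in DKO cells (0.70 and 1.62), where all 10 chaperonin genes had their lowest mean. In immortalized cells the cartilage sum was 39.3 to 104 CPM in WT, 23.5 to 26.2 in MlxKO, 19.8 to 24.7 in MycKO and 84.8 to 108 in DKO, and Sox9 (-1.0004) and Comp (-3.56) fell in MycKO, by more without WT library 4 (-1.18 and -5.22). Among neural markers Nes led in level in both tables and rose in primary MycKO (0.58), whereas Stmn2 fell there (-0.99) and rose in immortalized MycKO (4.85, and 4.49 without WT library 4), and Sox10 was at 0 in immortalized cells. Their part in the differences of the chaperonin genes was not tested.

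Because the 10 genes fell together in primary cells without Myc, the sequence around their starts was searched on both strands for 4 motifs, from 250 bases before to 50 after the canonical start and, more widely, within 1000 bases on either side. The motifs were the E-box CACGTG, which reads the same on both strands and which dimers of Myc and of Mlx can bind, the heat shock element, here 3 units that are by turns GAA and its reverse complement with any 2 bases between them, starting with either, the CCAAT box, read on the other strand as ATTGG, and the GC box GGGCGG, and they were compared with 21770 protein-coding genes (GENCODE on GRCm39). In the near window, 0 of 10 chaperonin genes held CACGTG, against 7.81% of all genes and 9.97% of those tested, so none of their proximal promoters carries these letters. The GC box, which on the other strand reads CCGCCC, was found in 7 of 10 (all but Cct3, Cct5 and Cct6a) against 42.5% of all genes and 58.6% of the 12624 that were tested in primary cells, as all 10 were, and CCAAT in 4 of 10 (Tcp1, Cct6a, Cct7 and Hspd1) against 39.9% of all and 39.7% of tested genes. The heat shock element was in 2 of 10, Hspd1 and Hspe1, against 0.478% of all and 0.444% of tested genes. Within 1000 bases, CACGTG was near 7 of 10 starts against 27.9% of all and 32.7% of tested genes, the heat shock element near 5 (Tcp1, Cct4, Cct8, Hspd1 and Hspe1) against 3.39% and 3.11%, CCAAT near 9 against 91.6% and 90.2%, and the GC box near 10 against 67.8% and 88.4%. The windows of Hspd1 and Hspe1 overlap, so that a match can count for both, as all their E-boxes do. A match describes letters and not binding, and the CCAAT and GC boxes are short and common.

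Hspd1 and Hspe1 had their heat shock letters in the same stretch, shown because it lies between the starts of the 2 genes with the largest falls in primary DKO cells. The stretch is chr1:55127212-55127241 (GRCm39, plus strand), which the annotation places upstream of the main starts and inside an exon of another Hspd1 transcript. Capitals mark 18 bases in which the element is matched once on each strand, the matches overlapping.
between Hspd1 and Hspe1: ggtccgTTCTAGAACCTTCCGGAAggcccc

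The E-box nearest to each start within 1000 bases is shown with 10 bases on either side, on the strand of the gene and with CACGTG in capitals, since dimers of the factors removed here can bind these letters, and other forms of their sites were not searched. Counted from the start, it lay at base -331 for Cct7, -399 for Cct8, -586 for Cct3 and -299 for Hspd1, where Hspd1 and Hspe1 share the same box in an Hspe1 exon. For Tcp1 and Cct4 it lay in an intron, at bases 861 and 967. Cct2, Cct5 and Cct6a had none in this window, and binding of Myc or Mlx near the chaperonin genes was not tested here.
Cct7 chr6:85428099-85428124: ggccgcgacgCACGTGggcagccaga
Cct4 chr11:22941335-22941360: gttgtaaaagCACGTGgtgaaaacca
Cct8 chr16:87293185-87293210: ctctgctacgCACGTGcagtccacgc
Cct3 chr3:88203693-88203718: tcctagcaccCACGTGgcggttcaca
Tcp1 chr17:13136066-13136091: tacgagtaagCACGTGgtttgctgtg
Hspd1 chr1:55127467-55127492: ccggctgggaCACGTGaaaaggccgc
Hspe1 chr1:55127467-55127492: gcggccttttCACGTGtcccagccgg

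Hspd1 and Hspe1 had the same 4 boxes within 1000 bases of their starts, and the other 5 genes with a box had 1.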

How the data were processed

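Values are those deposited by the authors, 1 table for primary and 1 for immortalized cells: the signal of each gene in each library, headed CPM, made by the authors with CLC Genomics Workbench version 22 from poly-A directional reads mapped to GRCm39 and counted per gene, and scaled between libraries in a way no source names (column sums of 915691 to 1077213). The annotation release and strand setting of the counting are not stated. All columns were used. Each value above 0 lay within 0.1 read of a whole multiple of 1 read, so reads were recovered (15986856 to 20966163 per library), with 3 reads at 0.145 to 0.196 CPM.

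The main test was limma-trend (limma 3.58.1, R 4.3.3) on log2(CPM + 1), with genes of at least 1 CPM in 3 or more of a table's 12 libraries, the 4 genotypes in 1 fit and Benjamini-Hochberg adjustment over all genes tested. Alternatives were a pseudocount of 0.1, no filter, a mean of 5 CPM or more as the filter, scaling by median ratios or library totals, only the groups compared, a robust prior, each library left out, edgeR 4.0.16, DESeq2 1.42.0 and agreement of the 3 tools. Library-total scaling with WT library 4 left out was added after seeing the data. The code was tested on simulated data, where limma called 91 of 100 genes moved by 1 log2 and 43 of 100 moved by 0.4, with 8 false calls among 13101 genes. The moved genes were drawn at random from all genes tested, and far more genes were called in the real MycKO and DKO comparisons with WT. These shares therefore do not describe recovery of the chaperonin genes.

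The chaperonin genes and the lists (prefoldin and CCT cofactors, CCT substrates, mitochondrial chaperones and proteases, mitochondrial import, heat shock and ER chaperones, Myc and Mlx network, testis paralogs, proliferation and cell type markers) were chosen with earlier results of these data known, by role. All 10 members, Myc and Mlx are named with every value, and from each list and table the 2 most abundant genes and the 2 with the largest absolute log2 fold change among those called in MycKO against WT. Some results that these rules would give, the neural sums among them, are not reported here. Places, transcript lengths, overlaps, copies by shared 50-base stretches and promoters come from GENCODE and the GRCm39 sequence, in which 41181 of the 41710 genes were found. Tables and plots were made with Python 3.11.15 and matplotlib 3.10.9.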

Additional observations from a re-analysis of the deposited data

Results flagged for a closer look

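Cct7 had an interaction of Myc and Mlx loss of -0.80 in immortalized cells, and Hspe1 had one of -0.61 in primary cells. In MycKO against WT, Cct7 had a log2 fold change of -0.34 in primary and of 0.42 in immortalized cells, and the difference between these was not tested, as the tables were normalized separately.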

How the results depend on the processing

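No paired analysis was possible because nothing links the numbers in the column names to replicates in the labels, so no replicate block was fitted. Summing a member with its copies gave no value, since no copy in the tables reaches the share of a member's 50-base stretches required.

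Leaving out each library in turn gave these ranges of members called, with the range of all genes called in brackets. In primary cells they were 10 to 10 in MycKO vs WT (4736 to 6236), 0 to 1 in MlxKO vs WT (627 to 2022), 10 to 10 in DKO vs WT (5648 to 7193), 3 to 5 in DKO vs MycKO (2053 to 3302), 10 to 10 in DKO vs MlxKO (5516 to 7130) and 1 to 1 for the Myc-by-Mlx interaction (1393 to 2180). In immortalized cells they were 1 to 4 in MycKO vs WT (4927 to 6951), 1 to 5 in MlxKO vs WT (2884 to 6033), 0 to 5 in DKO vs WT (1115 to 3248), 0 to 2 in DKO vs MycKO (2578 to 5266), 3 to 7 in DKO vs MlxKO (2352 to 5565) and 1 to 5 for the interaction (4956 to 7299).

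Other settings moved these counts, given here with all genes called in brackets. In primary DKO vs MycKO, DESeq2 on recovered reads called 5 members (3042), against 3 (2818). Median-ratio scaling added Cct2 (-0.17) to the calls of that comparison. In immortalized MycKO vs WT, 2 were called with library-total scaling (6101), 2 with DESeq2 on recovered reads (6360) and 0 with only the groups compared (4184), against 1 (6176). In immortalized DKO vs WT, 0 were called with no filter on low values (1958), 0 with only the groups compared (906), 3 with library-total scaling (2440) and 3 with DESeq2 on recovered reads (3003), against 1 (2434). In immortalized DKO vs MlxKO, 7 were called with only the groups compared (6011), against 4 (3879). Library-total scaling added Cct2 and Hspe1 to the calls of that comparison. For the immortalized Myc-by-Mlx interaction, 2 were called with library-total scaling (6245), against 1 (6108). With library-total scaling, WT library 4 left out, chosen after seeing the data, 4 were called in immortalized MlxKO vs WT (6186), 3 in DKO vs MycKO (5247), 8 in DKO vs MlxKO (6028) and 6 for the interaction (7378). The cause of these moves was not tested, and no member called with all libraries changed sign in that comparison. Members that were not called did so in both tables. Among immortalized cells, over the alternatives, Cct2 ran from -0.31 to 0.17, Cct6a from -0.34 to 0.35 and Cct8 from -0.37 to 0.18 in MlxKO vs WT, Cct5 from -0.33 to 0.03, Cct6a from -0.49 to 0.06 and Hspe1 from -0.27 to 0.22 in MycKO vs WT, and Tcp1 from -0.10 to 0.53, Cct2 from -0.26 to 0.23, Cct6a from -0.55 to 0.14 and Cct8 from -0.21 to 0.34 for the interaction. Other changes of sign occurred too, as in DKO vs MycKO and for Tcp1 in DKO vs MlxKO.

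With all libraries, all genes called were 1164 in primary MlxKO vs WT, 5014 in immortalized MlxKO vs WT, 3879 in immortalized DKO vs MlxKO and 2434 in immortalized DKO vs WT. With only the groups compared, 906 were called in the last of these and 6011 in immortalized DKO vs MlxKO, where 6028 were called with library-total scaling, WT library 4 left out. Limits: 3 libraries a group, cultures from pooled embryos, WT libraries whose line or lines the paper does not name, no measure of protein, and knockouts that differ from WT by 4OHT too.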
